A study of Mus musculus with 49 samples.

Results

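The genes of the translation initiation factors were followed in CD8+ T cells with and without IL-2 and with a mutated STAT5 protein. Members were the gene symbols that begin with Eif1 to Eif6, without the Eif2ak kinases, whose longest transcript had a mean of at least 1 RPKM (reads scaled to the length of the transcript and the mapped reads of the library) over the 47 libraries used. Of the 23992 symbols measured, 51 have such a name and 49 reached that level. The counts of Eif3j1 and Eif3j2 were equal in all 48 libraries, so Eif3j2 was not counted again and the members are 48 distinct genes. The lowest member was Eif5a2, with a mean of 2.03 RPKM, and the highest symbol under the limit was Eif4e1b, with 0.0339 RPKM. All 48 passed the filter on low counts and were tested among 15566 genes.

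RNA-seq was done on CD8+ T cells, the cytotoxic class of T cells, purified from the spleens of mice of 2 lines. Both lines were made in B6D2F1 zygotes and backcrossed to C57BL/6J. Mice of the Stat5a line carried on both alleles of Stat5a a knock-in (KI) made with CRISPR-Cas9 that puts phenylalanine in place of the tyrosine phosphorylated after IL-2, with silent changes beside it, and mice of the Stat5b line carried the like change in Stat5b. The controls of each line were WT littermates, and the other STAT5 gene was not altered in either line. Cells of each line and genotype were collected at 0 hr without IL-2, or after 4, 24, or 48 hr in 500 IU/ml IL-2, the growth factor of activated T cells, which gives 16 groups of 3 libraries. No cells were cultured without IL-2, so IL-2 and time in culture cannot be told apart in a change from 0 hr. Below, a rise, fall, or response with IL-2 means that change. A germline KI is present in every cell of the mouse, so the CD8+ T cells of KI mice also developed with the mutated protein. The 47 libraries held 17369112 to 60200653 reads on the longest transcripts (median 41410666), and between 1.01% and 1.59% of them lay on the 48 genes. The library of Stat5a KI cells at 4 hr numbered 3 held 1028515 such reads and was left out. Replicate 2 of the Stat5a WT cells at 4 hr also stood apart, with 17369112 reads on the longest transcripts and the lowest share of its mapped reads there, 44.9% against a median of 75.3%, and its RPKM values were low for most members. That share was 69.2%, 69.6%, and 71.9% in Stat5a WT libraries at 0 hr and 80.5%, 84.1%, and 82.3% at 48 hr. At 48 hr it was 83.2%, 83.7%, and 84.4% in Stat5b WT and 78.5%, 77.0%, and 72.6% in Stat5b KI libraries. RPKM is scaled to all mapped reads and is not adjusted for that share. Comparisons in RPKM between groups carry this difference, and its part was not tested.

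Initiation factors bring the small ribosomal subunit, the initiator tRNA, and the mRNA together and place them at the start codon. The eIF2 complex delivers the initiator tRNA and is recharged by eIF2B, eIF1 and eIF1A guide scanning for the start codon, eIF3 is the large scaffold on the small subunit, and eIF4F (the cap-binding eIF4E, the helicase eIF4A, and the scaffold eIF4G) prepares the 5′ end of the mRNA. Resting T cells make little protein, and activated T cells enlarge and raise protein synthesis before they divide.

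For 38 members RefSeq gives a promoter on GRCm38.p6, taken here as the 300 bases from 250 before to 50 after a transcript start. The letters CACGTG, the E-box that MYC and related factors can bind, which read the same on both strands, stood in a promoter of 10 of the 38 (26.3%) and of 2187 of all 27025 genes with a promoter (8.09%). The letters TTCNNNGAA, the form that STAT dimers can bind, also the same on both strands, stood in promoters of 3 of the 38 (7.89%) and of 2582 of all genes (9.55%). The 38 members have 50 promoters and the 27025 genes 32851, and a gene counts when any of its promoters matches. The set of all genes was not limited to those tested in these cells, and a difference in share was not tested. A match describes the sequence and is not evidence that a factor binds there. The 10 with CACGTG are Eif1b, Eif3a, Eif3f, Eif3k, Eif4a1, Eif4e, Eif4g1, Eif4h, Eif5a, and Eif5a2. One window each is given for 7 of them, which are Eif5a, Eif4a1, Eif4e, Eif4g1, and Eif4h, whose levels are followed below, and Eif3f and Eif3k from eIF3. The capitals mark the matched letters, and each window is read 5′ to 3′ on the strand of the gene.
Eif5a, chr11:69921443-69921472, minus strand: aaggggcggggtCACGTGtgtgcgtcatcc
Eif4a1, chr11:69672595-69672624, minus strand: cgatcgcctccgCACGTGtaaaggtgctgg
Eif4e, chr3:138527192-138527221, plus strand: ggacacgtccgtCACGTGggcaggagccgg
Eif4g1, chr16:20672661-20672690, plus strand: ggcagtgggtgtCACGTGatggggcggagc
Eif4h, chr5:134639488-134639517, minus strand: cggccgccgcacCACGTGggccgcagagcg
Eif3f, chr7:108934335-108934364, plus strand: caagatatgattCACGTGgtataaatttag
Eif3k, chr7:28981915-28981944, minus strand: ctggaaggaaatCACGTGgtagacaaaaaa
The windows with the STAT letters lie in the promoters of Eif4e, Eif3c, and Eif3g.
Eif4e, chr3:138527119-138527148, plus strand: aagactccacTTCCCAGAAgcctctccttc
Eif3c, chr7:126566414-126566443, minus strand: tctttggtgcTTCCGGGAAgtgacgccccc
Eif3g, chr9:20898756-20898785, minus strand: gtttaaaaagTTCTTTGAAgcttttttttg

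Levels per transcript length differed widely among members in WT cells at 0 hr. Eif1 was the highest, with 654, 639, and 618 RPKM in the 3 Stat5a WT libraries and 613, 716, and 699 RPKM in the 3 Stat5b WT libraries. Eif5a, Eif3h, Eif3f, and Eif4a1 followed, with group means of 221 to 270 RPKM over both lines. Eif5a2, the second eIF5A gene, was at 1.35 ± 0.322 RPKM (SD, n = 3) in Stat5a WT cells, and Eif2b3, the gamma subunit of eIF2B, at 1.90 ± 0.242 RPKM. Among the 5 eIF2B genes, which encode subunits of 1 complex, means in Stat5a WT cells ranged from 1.90 RPKM of Eif2b3 to 29.1 RPKM of Eif2b2. Eif2s3x, the X-linked gene of the gamma subunit of eIF2, was at 69.5 ± 5.402 RPKM, while its Y-linked copy Eif2s3y had no more than 1 read in a library and 0 in 41 of the 47. Xist, the RNA of the inactive X, was at 22.4 to 69.9 RPKM in every library.

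The share of reads on the 48 genes followed the time with IL-2 in WT cells and differed between WT and KI cells late in the culture. In the Stat5a line it was 1.20% ± 0.00795 (SD, n = 3) at 0 hr, 1.09% ± 0.0125 at 4 hr, 1.27% ± 0.0159 at 24 hr, and 1.53% ± 0.0600 at 48 hr in WT cells. In Stat5a KI cells the same times gave 1.18% ± 0.00287, 1.10% ± 0.0305 (n = 2), 1.15% ± 0.0159, and 1.17% ± 0.0271. In both lines the 3 KI libraries at 48 hr lay below the 3 WT libraries of that time. In the Stat5b line WT cells held 1.15% ± 0.00289 at 0 hr and 1.57% ± 0.0235 at 48 hr, and KI cells 1.16% ± 0.0302 at 0 hr and 1.06% ± 0.00758 at 48 hr. These are bulk samples, so fewer cells of a type and less RNA per cell cannot be told apart.

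**Figure D1:**
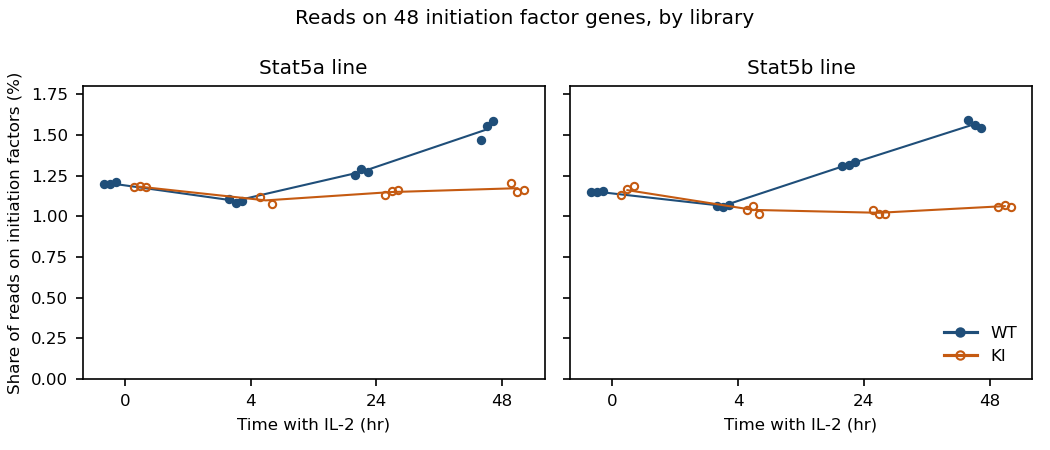
Share of the reads on the longest transcripts that lay on the 48 initiation factor genes (y axis, %) against time with IL-2 (x axis, hr), for the Stat5a line (left) and the Stat5b line (right). Each point is 1 library, filled for WT and open for KI, and lines join the group means; the WT libraries of 48 hr lie at 1.47% or more and the KI libraries of 48 hr at 1.20% or less in both lines.

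Most initiation factors were higher in WT cells after 48 hr in culture with IL-2 than at 0 hr. By edgeR's quasi-likelihood test, with p-values adjusted after Benjamini-Hochberg and called up to 0.05, 35 of the 48 genes rose and 9 fell in Stat5a WT cells, where 34.1% of all tested genes rose and 37.7% fell. In Stat5b WT cells 37 rose and 8 fell, beside 33.1% and 36.8% of all tested genes. A rise of at least 2-fold was reached by 14 and 15 of them, beside 14.3% and 14.6% of all tested genes. The median log2 fold change of the 48 was 0.68 in the Stat5a and 0.79 in the Stat5b line, and that of all tested genes was −0.12 and −0.13. In 38 and 39 of the 48 the WT libraries of 48 hr all lay above those of 0 hr in RPKM, as did 42.3% and 42.8% of all tested genes. The same 35 genes rose in both lines, and 7 fell in both (Eif1, Eif3f, Eif3h, Eif4a2, Eif4ebp3, Eif4g3, and Eif5). For genes called in both lines, here and below, the backgrounds are those of each line alone. The share of all tested genes called in both was not counted.

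Of the 5 genes grouped by name under eIF1 and eIF1A (Eif1, Eif1a, Eif1ad, Eif1ax, and Eif1b), 4 rose and Eif1 fell in both lines. Eif1ax, the X-linked eIF1A gene, went from 33.0, 30.7, and 35.4 RPKM at 0 hr to 94.3, 118.5, and 116.1 RPKM at 48 hr in Stat5a WT cells. The groups did not overlap, and the log2 fold change was 1.52 ± 0.080 (SE, adjusted p = 8.31e-19) in the Stat5a and 1.77 ± 0.081 (adjusted p = 1.65e-20) in the Stat5b line. Eif1, which keeps the scanning ribosome from stopping at wrong codons, was at 236, 155.8, and 250.1 RPKM at 4 hr and 261, 292, and 288 RPKM at 48 hr in Stat5a WT cells. All of these lay far below the libraries of 0 hr given above, and the level was this low by 4 hr, with a log2 fold change of −1.55 ± 0.056 at 4 hr and −1.39 ± 0.055 at 48 hr in the Stat5a and of −1.45 ± 0.055 and −1.36 ± 0.055 in the Stat5b line. Eif1b, the closest relative of Eif1, moved the other way (log2 fold change of 0.71 and 0.64 in the 2 lines). The ratio of Eif1 to Eif1b in RPKM was 35.4 ± 5.04 (SD, n = 3) at 0 hr and 8.12 ± 0.378 at 48 hr in Stat5a WT cells, and 34.1 ± 1.07 and 8.46 ± 0.206 in Stat5b WT cells.

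All 5 genes of the eIF2 group rose in both lines. Eif2s1, the alpha subunit that carries the regulatory serine, rose by a log2 fold change of 1.41 in the Stat5a and 1.57 in the Stat5b line, Eif2s2, the beta subunit, by 0.66 and 0.97, and Eif2s3x by 0.83 and 0.93. Eif2a, a separate factor that can also bring initiator tRNA, first fell at 4 hr (−0.68 and −0.77) and was above its 0 hr level at 48 hr (0.19 and 0.36). Of the 5 eIF2B genes 4 rose in both lines. Eif2b3 (1.49 and 1.37) rose the most among them in the Stat5a line and was level with Eif2b1, the alpha subunit (1.32 and 1.37), in the Stat5b line. In the Stat5a line Eif2b3 went from 1.85, 1.69, and 2.17 RPKM at 0 hr to 5.83, 6.41, and 6.37 RPKM at 48 hr. Eif2b5, the catalytic epsilon subunit, rose by 0.96 and 0.93. Eif2b2, the beta subunit, fell in the Stat5a line (−0.17) and was at −0.049 in the Stat5b line, and its sign in the Stat5a line turned to 0.040 with limma on log2(RPKM + 1). That scale moved the median of all genes from −0.12 to 0.24 in the Stat5a and from −0.13 to 0.19 in the Stat5b line.

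The 13 eIF3 subunits did not move as 1 block. In both lines 9 rose, while 3 fell in the Stat5a and 2 in the Stat5b line. Eif3b, a core subunit, was the one that rose the most, from 49.7, 49.5, and 53.8 RPKM to 136.9, 161, and 146.6 RPKM in Stat5a WT cells, with no overlap, and its log2 fold changes were 1.33 ± 0.079 and 1.31 ± 0.079. Eif3c rose by 0.94 and 1.04 and Eif3a by 0.47 and 0.73, both large core subunits. Eif3f went from 234, 239.7, and 254 RPKM to 219, 205, and 212 RPKM in Stat5a WT cells and fell in both lines (−0.40 and −0.52). Eif3h, the partner of Eif3f in the outer part of the complex, was at 254 ± 2.73 RPKM at 0 hr and 257 ± 2.70 RPKM at 48 hr in the Stat5a line, and its fall in the edgeR fit (−0.19 and −0.14) turned to 0.013 and 0.033 with limma on log2(RPKM + 1). Eif3k passed the test in neither line (−0.080 and −0.11).

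The 10 genes counted here as the eIF4F group include relatives of its subunits and the helper genes Eif4b and Eif4h. Of these 10, 7 rose and 2 fell in the Stat5a line, and 8 rose and 2 fell in the Stat5b line. Eif4a1, the main helicase, was at 218, 218, and 226 RPKM at 0 hr and 527, 600.4, and 612 RPKM at 48 hr in Stat5a WT cells, and at 209.6, 231, and 234 RPKM and 637, 607, and 614 RPKM in Stat5b WT cells. Its near copy Eif4a2 was at 194, 198, and 223 RPKM at 0 hr and 96.0, 94.5, and 114.8 RPKM at 48 hr in Stat5a WT cells. The libraries of the 2 times did not overlap for either gene, and they moved in opposite directions, by 1.19 ± 0.066 for Eif4a1 and −1.22 ± 0.11 for Eif4a2 in the Stat5a and by 1.29 ± 0.066 and −1.09 ± 0.11 in the Stat5b line. The ratio of Eif4a1 to Eif4a2 in RPKM was 1.081 ± 0.0590 (SD, n = 3) at 0 hr and 5.72 ± 0.552 at 48 hr in the Stat5a line, with 1.18 ± 0.134 and 6.10 ± 0.352 in the Stat5b line. Both genes host snoRNA genes, and reads that match both would be lost, since the authors kept uniquely mapped reads, so values of the pair carry that uncertainty. The scaffold genes showed a like contrast, since Eif4g1 rose (1.34 and 1.27) and Eif4g3 fell (−0.37 and −0.46), and their ratio went from 1.58 ± 0.0683 to 5.18 ± 0.444 in the Stat5a line. Of the cap-binding genes, Eif4e rose by 1.48 and 1.59, and Eif4e2, a relative with weaker cap binding, by 0.15 and 0.21. Eif4e3, another relative, rose from 4.83 ± 0.441 to 20.1 ± 1.796 RPKM in the Stat5a line, with the largest log2 fold change of the 48 genes there (1.85 ± 0.10, adjusted p = 5.90e-18), and by 1.69 ± 0.10 in the Stat5b line. Eif4h (1.34 and 1.31) and Eif4b (0.24 and 0.29), which stimulate the helicase, also rose, and so did Eif4a3, the relative that serves the exon junction complex (0.71 and 0.85).

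The genes whose proteins hold eIF4E back were split. Eif4ebp1, a repressor that mTORC1 inactivates, was at 5.01, 4.49, and 4.68 RPKM at 0 hr and 12.9, 14.8, and 18.4 RPKM at 48 hr in Stat5a WT cells, and rose by 1.49 ± 0.20 there and by 1.83 ± 0.20 in the Stat5b line. Its relative Eif4ebp3 fell in both lines (−0.45 and −0.52). Eif4ebp2, the most abundant of the 3, fell in the Stat5b line (−0.28) and was at −0.092 in the Stat5a line, short of the threshold. At 48 hr Eif4ebp2 was still 66.2 RPKM in Stat5a WT cells against 15.4 RPKM of Eif4ebp1, with a ratio of Eif4ebp1 to Eif4ebp2 of 0.0775 ± 0.00323 at 0 hr and 0.233 ± 0.0495 at 48 hr. Eif4enif1, which carries eIF4E into the nucleus, rose (0.54 and 0.53). In the last group Eif5a, the factor that carries the modified residue hypusine and also serves elongation, became the most abundant of the members. It was at 248, 261, and 269 RPKM at 0 hr and 815, 928, and 882 RPKM at 48 hr in Stat5a WT cells and at 253, 273, and 283 and 928, 927, and 902 RPKM in Stat5b WT cells. The libraries of 48 hr all lay above those of 0 hr, by 2.92-fold (log2 1.55 ± 0.14, adjusted p = 2.08e-12) and 3.02-fold (log2 1.60 ± 0.14, adjusted p = 8.66e-13). Eif6, which keeps the ribosomal subunits apart, rose by 1.36 and 1.29, and Eif5, the partner of eIF2 in start codon recognition, fell by 0.62 and 0.31 on the log2 scale. The gene of Eif5a (chr11:69916712-69921958 on GRCm38.p6, minus strand) overlaps Gps2, and the gene bodies of 21 members overlap another gene, 10 of them a protein-coding one, which matters because the use of strand in counting is not given in the sources used here.

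At 4 hr with IL-2 the shares of members that passed lay near the background, at 22.9% higher and 33.3% lower in Stat5a WT cells and 27.1% higher and 18.8% lower in Stat5b WT cells. At 4 hr 11 genes rose and 16 fell in Stat5a WT cells, beside 29.5% and 28.9% of all tested genes, and without replicate 2 of that time, which stood apart, 10 rose and 17 fell. In Stat5b WT cells 13 rose and 9 fell at 4 hr, beside 25.1% and 24.5%. In RPKM, the Stat5b WT libraries of 4 hr all lay above those of 0 hr in 28 of the 48 and below in 6. Of all tested genes 41.8% and 22.8% did so. In Stat5a WT cells these counts were 4 and 9, beside 13.1% and 22.5%. At 24 hr 27 rose and 10 fell in the Stat5a line (background 30.1% and 28.9%), and 31 rose and 10 fell in the Stat5b line (background 29.5% and 30.1%). The 4 hr and 24 hr medians of the 48 were −0.033 and 0.26 in the Stat5a and 0.0100 and 0.42 in the Stat5b line. The genes that rose at 4 hr in both lines were Eif1ax, Eif3c, Eif4e, Eif4e3, Eif4g1, Eif4h, Eif5a2, and Eif6, and those that fell in both were Eif1, Eif2a, Eif2b2, Eif2s3x, Eif3i, Eif4a2, Eif4g2, and Eif5. Eif4g2, a scaffold that does not bind eIF4E, was lower at 4 hr (−0.79 and −0.68) and at 0.015 and 0.21 at 48 hr, the second of which passed the test. Eif1ad passed at 4 hr with opposite signs in the 2 lines (−0.18 and 0.21), which was not tested as a difference.

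**Figure D2:**
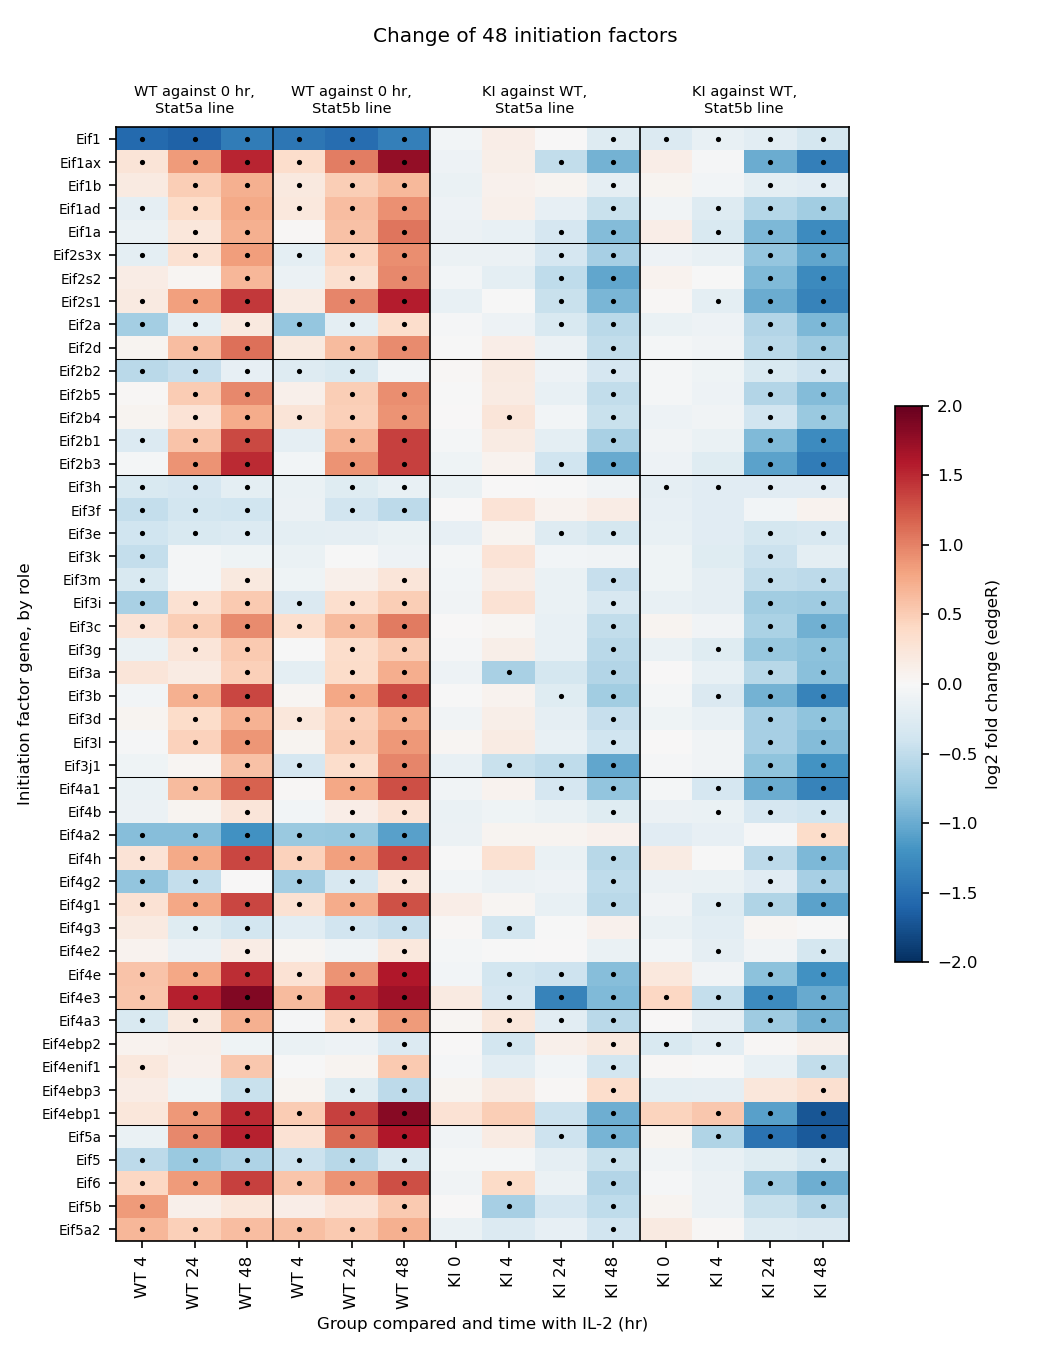
Log2 fold change (colour, edgeR, from −2 in blue to 2 in red) of the 48 initiation factors (y axis, grouped by role) in WT cells with IL-2 against 0 hr and in KI against WT cells at each time (x axis, hr), for both lines. A dot marks an adjusted p of at most 0.05; the WT columns are mostly red at 48 hr apart from Eif1, Eif4a2 and a few others, and the KI columns at 48 hr are mostly blue, with Eif4a2, Eif4ebp2, Eif4ebp3, and Eif3f not lower in either line.

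In KI cells most initiation factors were lower than in WT cells at 48 hr. In the Stat5a line 40 of the 48 were lower and 2 higher, beside 22.8% lower and 21.5% higher among all tested genes. In the Stat5b line 41 were lower and 2 higher, beside 30.5% and 33.1%. The median log2 fold change was −0.50 and −0.82 for the 48 genes and 0.038 and 0.10 for all genes tested. At least 2-fold lower were 3 members in the Stat5a line (background 2.43%) and 15 in the Stat5b line (background 9.81%). In 40 and 42 of the 48 all 3 KI libraries lay below all 3 WT libraries in RPKM, as did 26.1% and 32.1% of all tested genes. The same 39 genes were lower in both lines, Eif4ebp3 was the 1 that was higher in both, and Eif3f, Eif3k, and Eif4g3 passed the test in neither. Eif3h and Eif4e2 passed the threshold as lower in the Stat5b line alone and Eif5a2 in the Stat5a line alone, and the test of the difference between the lines passed for none of the 3 (−0.16, −0.22, and 0.085). The comparison shares its WT libraries of 48 hr with the comparison of 48 hr against 0 hr above, so the signs of the 2 are not independent.

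All 5 genes of the eIF1 and eIF1A group, all 5 of the eIF2 group, and all 5 of the eIF2B group were lower in KI cells of both lines. Eif2s2, the beta subunit of eIF2, was at 78.2, 91.1, and 103.6 RPKM in Stat5a WT cells and 51.6, 41.5, and 45.3 RPKM in Stat5a KI cells. In the Stat5b line it was at 97.9, 102.2, and 90.03 RPKM in WT and 40.6, 45.5, and 41.0 RPKM in KI cells. The groups did not overlap in either line, and KI cells were lower by 2.04-fold (log2 −1.03 ± 0.12, adjusted p = 1.72e-08) and 2.41-fold (log2 −1.27 ± 0.12, adjusted p = 3.44e-11). Eif2b3 had 5.83, 6.41, and 6.37 RPKM in WT and 3.497, 2.94, and 3.18 RPKM in KI cells of the Stat5a line, and 6.90, 6.22, and 6.47 and 2.72, 2.63, and 2.495 RPKM in the Stat5b line. No KI library reached a WT library, and the log2 fold changes were −1.003 ± 0.095 and −1.40 ± 0.097. Eif2s1 (−0.91 and −1.34), Eif2s3x (−0.66 and −1.03), Eif1ax (−0.94 and −1.37), and Eif1a (−0.86 and −1.26) were lower as well. Eif1, which had fallen with IL-2, was lower in KI cells by a smaller amount (−0.26 and −0.35), and Eif1b by 0.18 and 0.23 on the log2 scale. The ratio of Eif1 to Eif1b in KI cells at 48 hr was 7.71 ± 0.0708 and 7.82 ± 0.551 in the 2 lines, close to the WT values above.

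Of the 13 eIF3 subunits, 10 were lower in the Stat5a and 11 in the Stat5b line, and none was higher. Eif3j1, a loosely bound subunit, was at 48.8, 54.9, and 65.7 RPKM in WT and 31.7, 26.8, and 27.4 RPKM in KI cells of the Stat5a line. In the Stat5b line it was at 56.6, 59.4, and 56.9 RPKM and 23.8, 27.6, and 27.8 RPKM. The groups did not overlap, and Eif3j1 had the lowest log2 fold change of the Stat5a line (−1.03 ± 0.13, with −1.20 ± 0.13 in the Stat5b line), although its reads are the ones shared in full with Eif3j2. Eif3b was at −0.70 and −1.33. Eif3f was at 219, 205, and 212 RPKM in WT and 248, 249, and 236 RPKM in KI cells of the Stat5a line, and at 211, 208, and 217 and 252, 242, and 209 RPKM in the Stat5b line. The Stat5a KI libraries lay above the WT libraries and the Stat5b ones overlapped them, and neither difference passed the test (0.15 ± 0.11 and 0.065 ± 0.11). Eif3k was at −0.070 and −0.19. Of the 10 genes with the letters CACGTG in a promoter, Eif1b, Eif3a, Eif4a1, Eif4e, Eif4g1, Eif4h, and Eif5a were lower in KI cells of both lines, Eif5a2 passed in the Stat5a line alone, and Eif3f and Eif3k passed in neither. Of all 48 members 39 were lower in both lines, beside 22.8% of all tested genes in the Stat5a and 30.5% in the Stat5b line. Whether the genes with these letters differ from the other members was not tested.

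In the eIF4F group 7 of 10 genes were lower in the Stat5a line, and 8 were lower and 1 higher in the Stat5b line. Eif4a1 was at 366, 337, and 339.7 RPKM in Stat5a KI cells, with 266, 268, and 239 RPKM in Stat5b KI cells at 48 hr. All of these lay below the WT libraries of that time given above, with log2 fold changes of −0.79 ± 0.066 (adjusted p = 1.01e-11) and −1.34 ± 0.066 (adjusted p = 1.19e-18). Eif4a2 was at 118.2, 108.6, and 110.1 RPKM in Stat5a KI cells, and at 98.5, 105.3, and 101.3 RPKM in WT and 136.8, 134.97, and 142.4 RPKM in KI cells of the Stat5b line. In the Stat5b line every KI library lay above the WT libraries and the gene was higher (0.36 ± 0.11, adjusted p = 0.00449), while in the Stat5a line the groups overlapped (0.090 ± 0.11). The ratio of Eif4a1 to Eif4a2 was 3.10 ± 0.00795 in Stat5a KI cells, with 1.87 ± 0.169 in Stat5b KI cells at 48 hr, below the WT values of the same time and above those of 0 hr. Eif4g1 was lower by a log2 fold change of −0.54 and −1.07, Eif4e by −0.85 and −1.21, and Eif4h by −0.56 and −0.90. Eif4g3, at 0.084 and −0.0019, did not pass, and the ratio of Eif4g1 to Eif4g3 was 3.35 ± 0.128 and 2.63 ± 0.169 in KI cells of the 2 lines. Eif4e3 was lower in both lines at 4 hr (−0.33 ± 0.12 and −0.48 ± 0.10, the Stat5a groups overlapping in RPKM and holding the WT library that stood apart) and at 24 hr, with log2 fold changes of −1.34 ± 0.10 in the Stat5a and −1.26 ± 0.10 in the Stat5b line, the largest difference of any member at that time in the Stat5a line, and stood at −0.89 and −1.01 at 48 hr. Eif4a3 was lower by 0.54 and 0.94 on the log2 scale.

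The genes that hold eIF4E back were split in KI cells as well, with Eif4ebp1 and Eif4enif1 (−0.37 and −0.49) lower and Eif4ebp3 higher in both lines. Eif4ebp1 was at 9.12, 8.13, and 6.95 RPKM in Stat5a KI cells, against 12.9, 14.8, and 18.4 RPKM in WT cells, and at 6.06, 5.46, and 5.48 RPKM in Stat5b KI cells, against 17.0, 21.1, and 14.5 RPKM in WT cells. The KI libraries lay below the WT libraries in both lines, with log2 fold changes of −0.98 ± 0.19 and −1.71 ± 0.20. Eif4ebp3 was at 8.41, 8.49, and 8.04 RPKM in WT and 11.3, 11.2, and 10.5 RPKM in KI cells of the Stat5a line, and at 8.49, 7.72, and 9.16 and 11.4, 10.6, and 11.54 RPKM in the Stat5b line. Here the KI libraries lay above the WT libraries in both lines (0.35 ± 0.10, adjusted p = 0.00597, and 0.33 ± 0.10, adjusted p = 0.00671). Eif4ebp2 was higher in the Stat5a line (0.20 ± 0.065, adjusted p = 0.0119) and at 0.11 ± 0.065 in the Stat5b line, short of the threshold. The calls of the higher genes are the least firm of this comparison: without KI replicate 2 or WT replicate 3 of 48 hr the 2 calls of the Stat5a line fell to 0, and without KI replicate 3 of 48 hr the 2 calls of the Stat5b line fell to 0. Leaving out any 1 library of 48 hr left 39 to 40 lower genes in the Stat5a and 41 to 43 in the Stat5b line.

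Of the last group, 5 of 5 genes were lower in the Stat5a and 4 in the Stat5b line. Eif5a was at 509.8, 461, and 454 RPKM in Stat5a KI cells, with 313, 325, and 274 RPKM in Stat5b KI cells at 48 hr, against WT libraries at 815 RPKM or more in both lines. No KI library came near a WT library of 48 hr. In the Stat5b line 2 of the 3 KI libraries lay above the Stat5b WT libraries of 0 hr in RPKM. Against Stat5b KI cells at 0 hr the change did not pass edgeR's test (log2 −0.13 ± 0.14). Against WT cells at 48 hr the gene was 1.91-fold lower in the Stat5a line (log2 −0.93 ± 0.14, adjusted p = 7.94e-07) and 3.19-fold lower in the Stat5b line (log2 −1.68 ± 0.14, adjusted p = 6.67e-13). Eif6 (−0.59 and −0.98) and Eif5 (−0.44 and −0.37) were lower in both lines, the second although it had fallen with IL-2 in WT cells. Eif5b, the factor that joins the ribosomal subunits, was lower by 0.51 ± 0.20 and 0.59 ± 0.20 (SE) on the log2 scale.

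**Figure D3:**
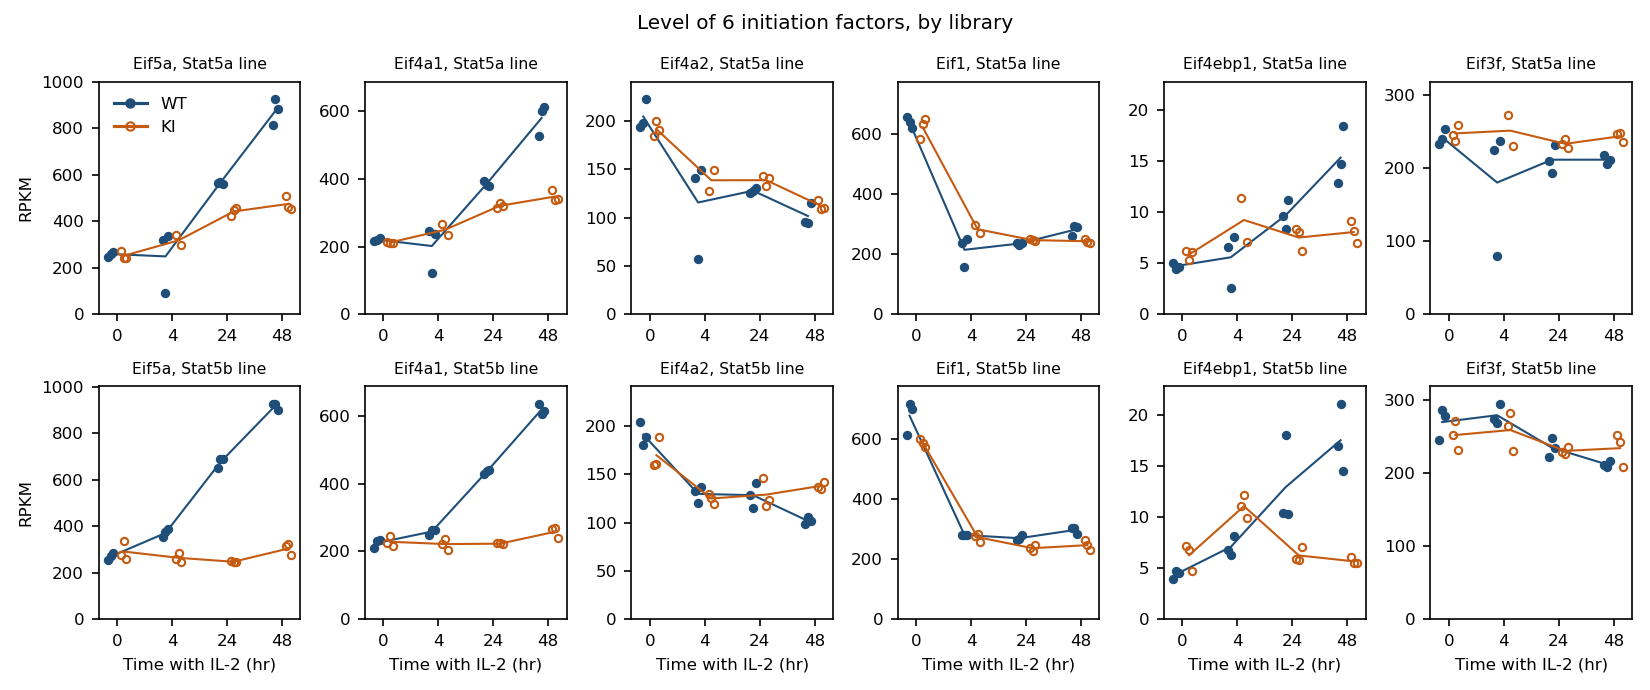
RPKM (y axis, from 0) of Eif5a, Eif4a1, Eif4a2, Eif1, Eif4ebp1, and Eif3f (columns) against time with IL-2 (x axis, hr) in the Stat5a line (top) and the Stat5b line (bottom). Each point is 1 library, filled for WT and open for KI, and lines join the group means; Eif5a and Eif4a1 climb in WT cells and stay lower in KI cells, Eif1 drops by 4 hr in all 4 courses, and the lone low WT library of 4 hr in the Stat5a line is the one that stood apart.

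The difference between KI and WT cells was called for few members before IL-2 and for more of them at 24 hr, when the difference between the lines was not tested. At 0 hr no member passed edgeR's test in the Stat5a line in either direction, with 0 higher and 3 lower at an unadjusted p under 0.05 (background 2.56% higher and 0.88% lower), and in the Stat5b line 1 was higher (Eif4e3, 0.41) and 3 were lower (Eif1, Eif3h, and Eif4ebp2), beside 13.6% and 9.26%. For the Stat5a line DESeq2 called 1 lower and 0 higher genes at 0 hr. At 4 hr 3 were higher and 7 lower in the Stat5a line (background 11.9% and 12.7%), but this rests on 2 KI libraries and on WT replicate 2 that stood apart, and without that WT library 1 was higher and 1 lower. With limma on log2(RPKM + 1) the balance turned, to 26 higher and 1 lower, and in a fit of only these groups 0 passed in either direction. In the Stat5b line 1 was higher and 14 lower at 4 hr (background 14.5% and 12.8%), with Eif5a lowest (−0.60), and without KI replicate 1 or KI replicate 3 of that group 6 or 7 were lower. With limma on log2(RPKM + 1) 0 were higher and 0 lower in that comparison, with all 48 libraries 0 and 1, and without a filter on low counts 9 were lower, while 24 were lower in the fit without the Stat5a WT library that stood apart. The 1 higher gene was Eif4ebp1 (0.53 ± 0.19), which was at 6.79, 6.30, and 8.16 RPKM in WT and 11.1, 12.2, and 9.94 RPKM in KI cells. Its KI libraries lay above the WT libraries at 4 hr and below them at 24 hr (−1.079) and 48 hr (−1.71). At 24 hr 15 members were lower in the Stat5a line (background 9.01%) and 38 in the Stat5b line (background 26.3%), with none higher in either by edgeR (0 and 1 at an unadjusted p under 0.05, 0 and 1 by DESeq2, background 9.49% and 24.1%). The 15 became 7 with limma on log2(RPKM + 1), 7 with all 48 libraries, and 23 with DESeq2. By edgeR the 15 were lower in both lines, and they hold 3 eIF2 subunit genes, Eif2a, Eif2b3, both eIF1A genes, Eif4e, Eif4e3, Eif4a1, Eif4a3, Eif5a, and 3 eIF3 genes (Eif3b, Eif3e, and Eif3j1). The medians at 24 hr were −0.15 and −0.58, beside 0.011 and 0.068 for all genes.

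For most members the change from 0 hr with IL-2 was smaller or more negative in KI than in WT cells, by the test of that difference given below. From 0 to 48 hr 24 rose and 12 fell in Stat5a KI cells (background 31.8% and 30.6%, median 0.20), and 9 rose and 14 fell in Stat5b KI cells (background 24.7% and 26.9%, median −0.012). The shares in Stat5b KI cells, 18.8% and 29.2%, lay near the background, and the balance turned with the processing, to 16 higher and 3 lower with limma on log2(RPKM + 1), 14 higher and 12 lower with the transcript of highest mean RPKM, and 13 higher and 10 lower without a filter on low counts. Eif5a rose by 0.68 ± 0.14 in Stat5a KI cells and was at −0.13 ± 0.14 in Stat5b KI cells, short of the threshold. Eif4a1 gave 0.47 ± 0.065 and −0.016 ± 0.065, the second of which did not pass. Eif1 fell in KI cells of both lines as it did in WT cells (−1.60 and −1.44), and so did Eif4a2 (−1.01 and −0.49) and Eif5 (−1.02 and −0.62). The test of the difference between the KI and WT responses passed as a smaller or more negative response in KI cells for 33 members in the Stat5a line (background 16.2%) and for 37 in the Stat5b line (background 25.6%), 31 of them in both. With all 48 libraries the 33 of the Stat5a line became 15. It passed in the other direction for 0 in the Stat5a line (1 at an unadjusted p under 0.05 and 0 by DESeq2, background 11.8%) and for 3 in the Stat5b line (background 23.8%), which were Eif4a2 (0.60), Eif4ebp2 (0.42), and Eif4ebp3 (0.52). The difference was at least 2-fold for Eif4ebp1 (−1.27 ± 0.28) and Eif4e3 (−1.07 ± 0.14) in the Stat5a line (background 3.09%) and for 15 members in the Stat5b line (background 11.1%), the strongest being Eif4ebp1 (−2.16 ± 0.28), Eif5a (−1.72 ± 0.19), and Eif1ax (−1.51 ± 0.11).

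The lines were then set against each other in the same fit. The KI effect at 48 hr was more negative in the Stat5b line than in the Stat5a line by estimate for 44 of the 48 members. The share of all tested genes with that sign was not counted. The test of the difference passed for 18 of the 48 and in the other direction for 0 (0 also at an unadjusted p under 0.05 and by DESeq2), beside 7.83% and 3.2% of all genes tested. The median difference of the 48 was −0.24, and that of all genes 0.0021. The largest was that of Eif5a (−0.74 ± 0.19, adjusted p = 0.00936), followed by Eif3b (−0.63 ± 0.11), Eif2b1 (−0.60 ± 0.12), Eif4a1 (−0.55 ± 0.092), and Eif4g1 (−0.53 ± 0.096), and none reached 2-fold. Eif4ebp1 had a difference of similar size with a larger error (−0.73 ± 0.27, adjusted p = 0.0811) and did not pass. For Eif2s2 (−0.24 ± 0.17), Eif3j1 (−0.17 ± 0.18), and Eif4e3 (−0.12 ± 0.14), which were lower in KI cells of both lines, no difference between the lines was detectable. The count of 18 became 2 with limma on log2(RPKM + 1) and 1 with all 48 libraries, and was 12 to 18 with any 1 library left out. WT cells of the 2 lines were not the same animals. Among the markers of other cells described below, the same test passed as a more positive KI effect in the Stat5b line for 3 of 8 B cell, 1 of 8 myeloid, 4 of 7 erythroid, and 2 of 4 CD4 T cell markers, and their part was not tested. The erythroid count holds both Hba-a1 and Hba-a2, which had identical values and are not separate measurements.

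**Figure D4:**
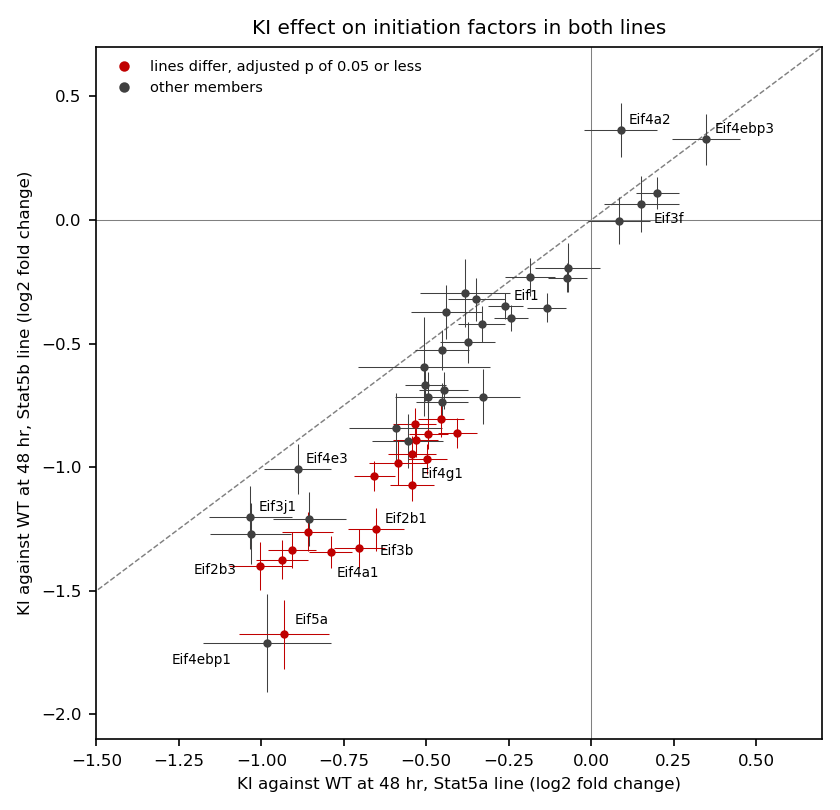
Log2 fold change of KI against WT cells at 48 hr in the Stat5a line (x axis) and in the Stat5b line (y axis) for the 48 initiation factors, each with its SE as bars. Red points are the 18 genes whose effects differ between the lines at an adjusted p of at most 0.05 and the dashed line marks equal effects; most points lie below it, and Eif4a2 and Eif4ebp3 stand at the upper right.

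Other genes of the pathway, from lists of its regulators and partners, were measured in the same comparison at 48 hr. Among all tested genes, the Stat5a comparison called 22.8% lower and 21.5% higher. The Stat5b comparison called 30.5% lower and 33.1% higher. All 6 genes that make polyamines or hypusine, the modification of eIF5A (Dhps, Dohh, Odc1, Srm, Sms, and Amd1), were lower in KI cells of both lines, with medians of −0.61 and −1.06. Srm, spermidine synthase, was at 120.4 RPKM in WT and 50.8 RPKM in KI cells of the Stat5a line (−1.29 ± 0.12) and at 127.1 and 27.5 RPKM in the Stat5b line (−2.29 ± 0.12), and Odc1, ornithine decarboxylase, was lower by 1.27 ± 0.11 and 2.01 ± 0.11 on the log2 scale. Myc was at 94.2, 96.9, and 94.6 RPKM in WT and 65.4, 67.7, and 67.7 RPKM in KI cells of the Stat5a line, and at 93.0, 90.1, and 94.8 and 45.4, 42.0, and 40.2 RPKM in the Stat5b line. The groups did not overlap, and Myc was lower in both lines (−0.56 ± 0.17 and −1.20 ± 0.18), as was Mycn (−1.78 and −5.18), which was at 2.81 RPKM in Stat5a WT cells. Of the 4 kinases that phosphorylate eIF2, 2 were lower in each line, Eif2ak2 (−0.44 and −0.61) and Eif2ak4 (−0.19 and −0.33), and none was higher. Of 12 genes of the eIF2 phosphatase and the response to eIF2 phosphorylation, 7 were lower and 1 higher in the Stat5a and 9 lower and 2 higher in the Stat5b line, with Asns, asparagine synthetase (−2.26 and −3.67), and Chac1, a glutathione-degrading enzyme (−1.60 and −2.84), the lowest.

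Of 10 tested elongation and termination genes, 5 were lower in the Stat5a and 6 in the Stat5b line and none was higher. The background for each list in this paragraph was 22.8% lower and 21.5% higher in the Stat5a and 30.5% and 33.1% in the Stat5b line. The lowest were Etf1, the release factor (−0.87 and −1.22), and Eef1e1 (−1.13 and −1.70), which despite its symbol encodes a scaffold of the tRNA synthetase complex. Of 10 genes of poly(A) binding and ribosome recycling, 7 and 8 were lower and 1 was higher in each line, with Pabpc4 (−0.85 and −1.44), a poly(A) binding protein, and Abce1 (−0.75 and −1.04), which splits ribosomes, at the lower end. The 14 genes of mTORC1, its S6 kinase arm, and the MNK kinases had 3 higher and 3 lower in each line, beside 21.5% and 22.8% of all genes in the Stat5a and 33.1% and 30.5% in the Stat5b line, with medians of −0.0062 and −0.067. Among them Larp1, which binds mRNAs of the translation machinery, was lower (−0.81 and −1.37) and Pdcd4, an inhibitor of eIF4A, was higher (0.33 and 0.74).

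Markers of other cell types also moved with genotype and time. Of all tested genes, 21.5% were higher and 22.8% lower in Stat5a KI cells at 48 hr, and 33.1% and 30.5% in Stat5b KI cells. At 0 hr these shares were 2.56% and 0.88% in the Stat5a and 13.6% and 9.26% in the Stat5b line. All 6 measured markers of T and CD8 T cells were present in these cells, and their summed RPKM at 48 hr was 1354, 1246, and 1233 in Stat5a WT, 1678, 1834, and 1696 in Stat5a KI, 1197, 1211, and 1233 in Stat5b WT, and 1860.1, 1755, and 1674 in Stat5b KI cells, with Cd8b1 the most abundant in all 4 groups, and 5 of the 6 were higher in KI cells of each line. All 8 B cell markers were higher in KI cells at 48 hr in both lines (median 2.04 and 3.78), with summed RPKM of 40.3, 33.3, and 13.8 in Stat5a WT, 117.4, 104.5, and 124.9 in Stat5a KI, 13.5, 11.8, and 14.1 in Stat5b WT, and 131.8, 128.95, and 135.5 in Stat5b KI cells, the most abundant being Cd79b in WT and Cd79a in KI cells. Of 8 measured myeloid markers, 7 and 8 were higher (median 3.38 and 5.86), with sums of 7.81, 6.12, and 3.10 in Stat5a WT, 65.4, 23.1, and 22.8 in Stat5a KI, 3.32, 3.18, and 4.55 in Stat5b WT, and 96.3, 60.1, and 76.9 in Stat5b KI cells, the most abundant being Cd68 in WT and Lyz2 in KI cells. Of 7 erythroid markers, 0 passed in the Stat5a line by edgeR (3 higher at an unadjusted p under 0.05, median 1.41) and 7 were higher in the Stat5b line (median 4.81), with sums of 6.40, 7.25, and 8.02 in Stat5a WT, 22.5, 17.9, and 18.2 in Stat5a KI, 4.71, 5.63, and 8.28 in Stat5b WT, and 206, 110.9, and 170.2 in Stat5b KI cells, Hbb-bs and Hba-a1 the most abundant. Hba-a1 and Hba-a2 had identical fitted values, so they are not separate measurements, although both are counted among the 7. CD4 T cell markers were higher for 3 and 4 of 4 genes (sums of 5.03, 5.37, and 4.55 and 12.6, 12.8, and 13.3 in the Stat5a and of 3.88, 4.01, and 3.40 and 17.2, 17.7, and 17.2 in the Stat5b line, Zbtb7b the most abundant in WT and Cd4 in KI cells), and of 6 NK cell markers, with Eomes the most abundant, 1 was higher and 3 lower in the Stat5a and 2 higher and 3 lower in the Stat5b line (sums of 99.0, 114.1, and 102.6 and 59.4, 54.7, and 57.0, and of 106.99, 109.5, and 101.5 and 63.3, 67.8, and 49.3). The paper counts EOMES among the factors lower in CD8+ T cells of the KI mice, so the NK sums do not describe NK cells alone. The other-cell markers were high in KI cells of the Stat5b line at 0 hr as well (8 of 8 B cell, 7 of 8 myeloid, and 7 of 7 erythroid markers higher, and 6 of 6 T and CD8 T cell markers lower), when 1 initiation factor was higher and 3 were lower. In Stat5a KI cells at 0 hr 3 of 8 B cell and 2 of 4 CD4 T cell markers were higher and 2 of 6 T and CD8 T cell markers lower, with medians of 1.21 for B cell and 1.303 for myeloid markers, of which 0 of 8 passed edgeR's test and 7 were higher at an unadjusted p under 0.05. The summed RPKM of the B cell markers at 0 hr was 156.1, 171, and 60.2 in Stat5a WT, 319.9, 259, and 297 in Stat5a KI, 61.1, 58.8, and 67.8 in Stat5b WT, and 238, 248, and 241 in Stat5b KI cells, so that no KI library overlapped the WT libraries of its line. In WT cells the B cell, myeloid, and erythroid markers all fell from 0 to 48 hr in both lines. The part of these markers in the differences of the initiation factors was not tested.

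**Figure D5:**
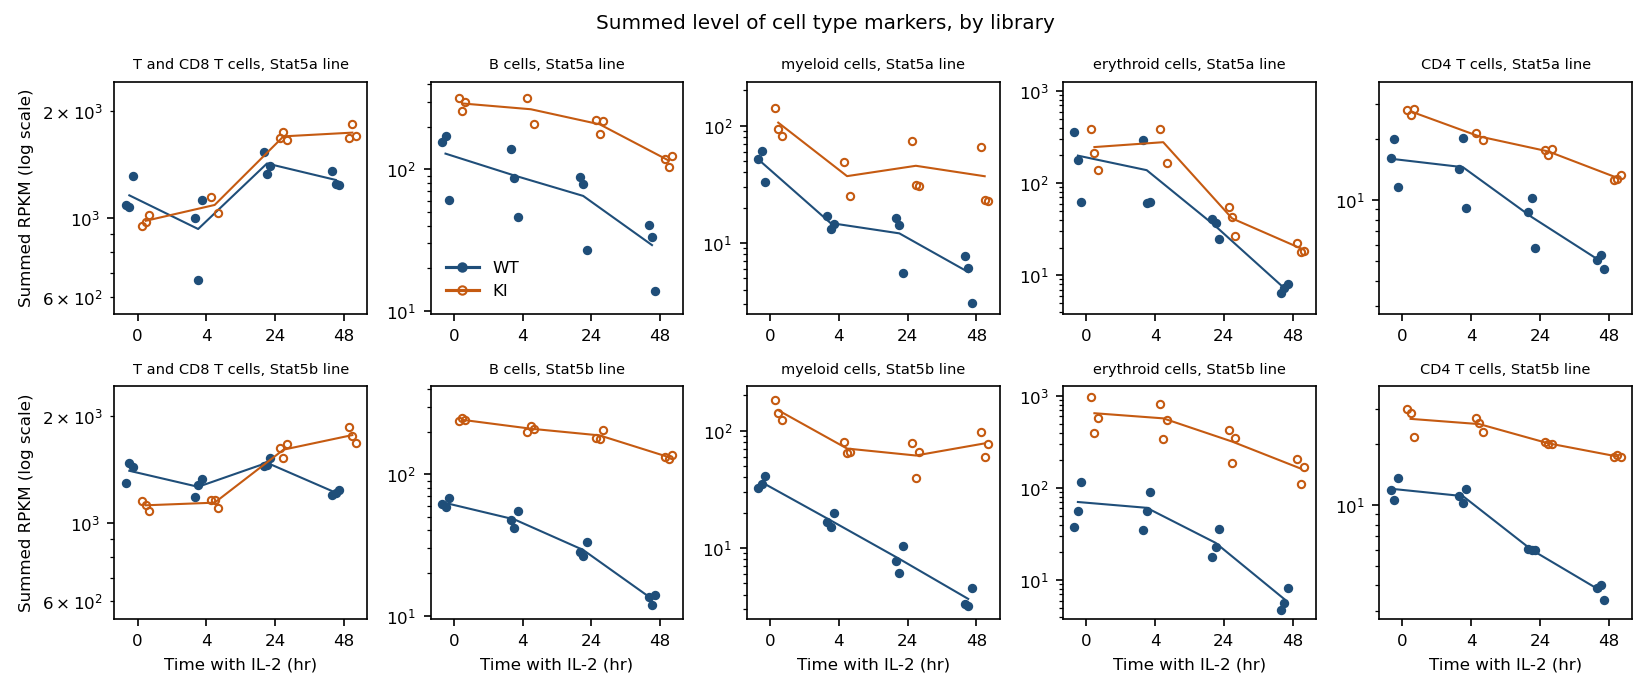
Summed RPKM of the markers of T and CD8 T cells, B cells, myeloid cells, erythroid cells, and CD4 T cells (columns; y axis, log scale) against time with IL-2 (x axis, hr) in the Stat5a line (top) and the Stat5b line (bottom). Each point is 1 library, filled for WT and open for KI, and lines join the group means; B cell, myeloid, erythroid, and CD4 sums of KI cells lie above those of WT cells at 48 hr in both lines.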

How the data were processed

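Per the labels and the methods, mRNA libraries of splenic CD8+ T cells were sequenced and reads were mapped by the authors to mm10/GRCm38, with unique reads kept. The submitters' notes list TopHat2 2.0.11, Bowtie2 2.2.6, SAMtools 0.1.8, bedtools 2.25.0, and edgeR, and the counting program and its use of strand are not given in the sources used here. The deposited counts are raw reads on the exons of each of 31682 RefSeq transcripts, and the authors derived the deposited RPKM from these. A read on a shared exon is counted for each isoform, so the longest transcript was used for each symbol (13 members have 2 or more transcripts). The STAT5 ChIP-seq was not analysed here.

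The members, the lists, and the tests were chosen with earlier results of these data known. In R 4.3.3, edgeR 4.0.16 was run with TMM, the quasi-likelihood test, and filterByExpr at its minimum count of 10 on 47 libraries in 1 fit, with 1 mean for each group and Benjamini-Hochberg adjustment over 15566 genes; scripts were tested on simulated data. Values after ± are SE for log2 fold changes and SD for RPKM, shares, and ratios. The labels do not say whether the libraries of a group came from separate mice, so p-values measure the spread between these samples, which may be technical. No pair of libraries in a group differed by less than sampling noise (chi-square of 4.83 to 220.7 per gene over 46 pairs). The floor of 3 reads covers counting error only.

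Named members are, for each role, the 2 with the highest mean RPKM, the 3 largest rises and falls past the test in both lines in the WT and KI comparisons at 48 hr, those past the test and 2-fold in the differences between genotypes or lines, the sex-linked pair, and the 3 that went against their group, and for other lists the 2 largest moves and Myc. Other members named were chosen after their values were seen. The alternatives were DESeq2 1.42.0, its size factors in edgeR, no filter, limma 3.58.1 on log2(RPKM + 1) for genes at 1 RPKM or more in at least 3 libraries, only the groups compared, a replicate block, all 48 libraries, another transcript, and each library left out. Replicate numbers paired the samples by the correlation of their deviations from the group means (each over 0.1) in the Stat5a WT comparisons of 24 hr (0.206, 0.273, and 0.419) and 48 hr (0.166, 0.117, and 0.192). Promoter sequences are from RefSeq on GRCm38.p6. Plots used Python 3.11.15 (matplotlib 3.10.9, pandas 2.3.3, numpy 2.4.6).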

Additional observations from a re-analysis of the deposited data

Results flagged for a closer look

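The KI effect at 48 hr differed between the 2 lines for 18 members by the test of the difference itself in edgeR, each being more negative in the Stat5b line. The differences of the log2 fold changes, Stat5b line minus Stat5a line, were those of Eif1a (−0.40), Eif1ax (−0.44), Eif2a (−0.36), Eif2b1 (−0.60), Eif2b3 (−0.40), Eif2b5 (−0.37), Eif2s1 (−0.43), Eif2s3x (−0.38), Eif3b (−0.63). The others were Eif3c (−0.47), Eif3d (−0.35), Eif3g (−0.29), Eif3l (−0.46), Eif4a1 (−0.55), Eif4a3 (−0.40), Eif4g1 (−0.53), Eif5a (−0.74), and Eif6 (−0.40). By the same test the KI effect was more positive in the Stat5b line for 3 of 8 B cell, 1 of 8 myeloid, and 4 of 7 erythroid markers, beside 3.2% of all tested genes. It was also more positive for the CD4 T cell markers Cd4 and Foxp3. The erythroid count holds both Hba-a1 and Hba-a2, which had identical values. The part of these markers was not tested. The count of 18 members fell to 2 with limma on log2(RPKM + 1) and to 1 with all 48 libraries.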

How the results depend on the processing

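Of the counts at 48 hr, the lower genes of KI against WT numbered 39 to 40 in the Stat5a and 41 to 43 in the Stat5b line with any 1 library left out, and no alternative moved either count by over 1.5 times. The counts that moved by more follow, and the cause was not tested. Depth limits little here, since a floor of 3 reads lies at 0.0498 to 0.173 CPM (reads scaled to the depth of the library) in the 47 libraries. With DESeq2, KI against WT Stat5a at 0 hr gave 1 lower, KI against WT Stat5a at 4 hr gave 11 lower, KI against WT Stat5a at 24 hr gave 23 lower, KI against WT Stat5a at 48 hr gave 1 higher, and KI against WT Stat5b at 24 hr gave 1 higher. With DESeq2's size factors in edgeR, KI against WT Stat5a at 4 hr gave 1 higher, KI against WT Stat5a at 48 hr gave 1 higher, and KI against WT Stat5b at 24 hr gave 1 higher. Without a filter on low counts, KI against WT Stat5a at 4 hr gave 1 higher, KI against WT Stat5a at 48 hr gave 1 higher, and KI against WT Stat5b at 4 hr gave 9 lower. In fits of only the groups compared, WT Stat5a 4 hr against 0 hr gave 2 higher and 6 lower, KI against WT Stat5a at 4 hr gave 0 higher and 0 lower, and KI against WT Stat5b at 0 hr gave 3 higher. With the transcript of highest mean RPKM, KI against WT Stat5a at 4 hr gave 1 higher, KI against WT Stat5a at 48 hr gave 1 higher, and KI Stat5b 48 hr against 0 hr gave 14 higher. Without replicate 2 of the Stat5a WT cells at 4 hr, an alternative chosen after seeing the data, WT Stat5b 4 hr against 0 hr gave 14 lower, KI against WT Stat5b at 0 hr gave 3 higher, KI against WT Stat5b at 4 hr gave 24 lower, and the KI against WT response of the Stat5a line gave 1 higher. With all 48 libraries, WT Stat5a 4 hr against 0 hr gave 5 higher and 7 lower, WT Stat5a 24 hr against 0 hr gave 5 lower, WT Stat5a 48 hr against 0 hr gave 3 lower, WT Stat5b 4 hr against 0 hr gave 3 higher and 4 lower, WT Stat5b 24 hr against 0 hr gave 4 lower, and WT Stat5b 48 hr against 0 hr gave 3 lower. Under the same setting KI against WT Stat5a at 4 hr gave 0 higher, KI against WT Stat5a at 24 hr gave 7 lower, KI against WT Stat5a at 48 hr gave 0 higher, KI against WT Stat5b at 0 hr gave 0 higher and 1 lower, KI against WT Stat5b at 4 hr gave 0 higher and 1 lower, and KI against WT Stat5b at 48 hr gave 0 higher. Under the same setting KI Stat5a 48 hr against 0 hr gave 6 lower, KI Stat5b 48 hr against 0 hr gave 3 higher and 5 lower, the KI against WT response of the Stat5a line gave 15 lower, the KI against WT response of the Stat5b line gave 0 higher, and the difference of the lines gave 1 lower. With limma on log2(RPKM + 1), WT Stat5a 4 hr against 0 hr gave 6 higher, WT Stat5a 24 hr against 0 hr gave 4 lower, WT Stat5a 48 hr against 0 hr gave 4 lower, WT Stat5b 4 hr against 0 hr gave 4 lower, WT Stat5b 24 hr against 0 hr gave 4 lower, and WT Stat5b 48 hr against 0 hr gave 4 lower. Under the same setting KI against WT Stat5a at 4 hr gave 26 higher and 1 lower, KI against WT Stat5a at 24 hr gave 7 lower, KI against WT Stat5b at 0 hr gave 2 higher and 1 lower, KI against WT Stat5b at 4 hr gave 0 higher and 0 lower, KI Stat5a 48 hr against 0 hr gave 3 lower, and KI Stat5b 48 hr against 0 hr gave 16 higher and 3 lower. Under the same setting the difference of the lines gave 2 lower. On that scale Eif2b2 turned to 0.040 in the Stat5a line, and Eif3h to 0.013 in the Stat5a and 0.033 in the Stat5b line, in WT cells at 48 hr. With 1 library left out at a time the counts were 9 to 13 lower in KI Stat5b 48 hr against 0 hr, 0 to 2 higher in the KI against WT response of the Stat5a line, 1 to 2 higher in KI against WT Stat5b at 0 hr, 2 to 5 lower in KI against WT Stat5b at 0 hr, 0 to 1 higher in KI against WT Stat5b at 24 hr, 0 to 9 higher in KI against WT Stat5a at 4 hr. They were also 0 to 10 lower in KI against WT Stat5a at 4 hr, 0 to 1 higher in KI against WT Stat5b at 4 hr, 6 to 11 lower in KI against WT Stat5b at 4 hr, 0 to 2 higher in KI against WT Stat5a at 48 hr, and 0 to 2 higher in KI against WT Stat5b at 48 hr. The library behind the widest range, KI against WT at 4 hr in the Stat5a line, was KI replicate 1, without which 0 genes passed in either direction.

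With the replicate number as a block, KI against WT Stat5a at 4 hr gave 6 higher. It changed no other count by over 1.5 times. The numbers paired the samples in the Stat5a WT comparisons of 24 hr and 48 hr alone, and there the block moved no count by that much.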
